A study of Mus musculus with 12 samples.

Results

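The untreated control cells of the study are mouse neural stem cells dissected from the cerebral cortex of embryos at E12.5 (embryonic day), grown in culture and stably transfected with an shRNA of random sequence. They are the 3 arrays, out of 12 in the series, whose titles name the control shRNA without TGFb. The other arrays hold cells with an shRNA against JMJD3 (the protein of Kdm6b, a histone H3 demethylase) or cells given TGFb at 5 ng/ml for 2.5 h, and none of their values is used here. The study's text calls the untreated arrays vehicle treated, and the labels give their treatment as none. All cells of the group carry the random shRNA, so that the values describe a transfected line and not freshly isolated cortex. The labels do not say whether the 3 replicates came from separate cultures or dissections, and each replicate lay on a slide of its own. The SD between replicates therefore covers slide, labelling and any culture differences together, and may be technical in part.

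Neural stem cells of the early cortex are radial glia, or cells derived from them in culture, that divide and later give rise to neurons, astrocytes and oligodendrocytes. They are recognised by intermediate filament proteins such as nestin and vimentin, by transcription factors of the SoxB1 family that hold the neural progenitor state, and by the lipid carrier Fabp7. Growth in culture with mitogens is known to change their regional and glial gene expression, and ligands, receptors and chromatin regulators set which signals they can answer.

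RNA was labelled with Cy3 and hybridised to 1-colour Agilent arrays. A level is the log2 of a probe's background-corrected signal minus the log2 of the 75th percentile of that array, so that 0 is the signal of the 75th percentile and each unit is a doubling of signal. The 75th percentile signals were 4051, 3779 and 3521 on replicates 1 to 3, the software marked 75.9% to 78.4% of 39429 gene probes as well above background, and it marked 0 spots as saturated. Each gene was given its brightest probe. Probes differ in brightness per molecule, so a rank of signal is not an order of transcript amounts, and the levels of different genes are given to place each gene on the array's scale.

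Of 31424 genes, 23243 (74.0%) had a probe well above background on all 3 arrays and 6415 (20.4%) had none on any array. The remaining 1766 were detected on 1 or 2 arrays. This detection call is permissive: 285 of 1042 olfactory receptor genes (27.4%), which neurons of the nose express, passed it on all 3 arrays. The 95th percentile of the olfactory receptor genes' means, a level of -5.67 or 1.97% of the 75th percentile signal, was therefore taken as a reference level after the values had been seen. Above it, and detected on all 3 arrays, were 17747 genes (56.5%). With a stricter reference level at the 99th percentile of these genes 14746 were above it, and 9 of the list counts given next fell by over 1.5 times; those are stated beside them or at the end. A level over 0 was found for 8150 genes (25.9%). Across all genes the replicates correlated at 0.9947 to 0.9965 (Pearson's r across genes, which are not independent replicates), and the median SD between replicates was 0.086 for genes above the reference level. Repeated spots of a probe within an array had a median SD of 0.040 to 0.053.

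The 60 gene lists described next name 951 genes, of which 945 were measured. Of those measured, 768 were detected on all 3 arrays, 629 stood above the reference level and 137 were not detected on any array. In 287 of them the array holds more than 1 probe, and in 129 the brightest and the dimmest probe differ by over 3 log2 units. For such genes the level of the dimmest probe is given beside that of the brightest where the account turns on it. The 56.5% of all genes, set beside list counts below, is not a share of well annotated genes. It covers all 31424 genes, of which 6180 have more than 1 probe, and 9232 probes kept the file's name. Of 17176 genes with a RefSeq promoter window 10858 stood above the reference level.

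The 4 genes that define the cells were bright on every array. Nes, which encodes the intermediate filament protein nestin, read 5.27, 5.35 and 5.39 on replicates 1, 2 and 3 (mean 5.34 ± 0.06, SD, n = 3) and ranked at the 97.2nd percentile of detected genes. Vim, the gene of vimentin, read 6.43, 6.26 and 6.34 (6.34 ± 0.09) and ranked at the 99.1st percentile. Fabp7, the brain fatty acid binding protein of radial glia, read 6.79, 6.66 and 6.64 (6.69 ± 0.08) at the 99.6th percentile. These values place nestin, vimentin and Fabp7 among the brightest probes of the arrays, with replicates within 0.2 units of each other. Sox2, a SoxB1 factor needed for neural progenitor identity, read 2.0, 1.94 and 1.96 (1.97 ± 0.03) at the 80.9th percentile. In the mm9 build the probes lie at chr3:87784303-87784362 (Nes), chr2:13504232-13504291 (Vim), chr10:57508039-57508098 (Fabp7) and chr3:34550773-34550832 (Sox2). The label of the cells is thus met by each of its 4 markers.

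The promoters of these 4 genes are shown with those of 3 genes that were not detected on any array, because the CpG content of the promoter, described further on, went with detection over all genes. En1, a homeobox factor of the midbrain and hindbrain, and Hoxd13, a homeobox factor of the posterior body and limb, have CpG-rich promoters. Aif1, a marker of microglia, has a CpG-poor promoter. Each sequence is the 250 bases before the transcription start in RefSeq (GRCm38.p6), 5′ to 3′ on the gene's strand, with every CpG in capitals. They lie at chr3:87970843-87971092 on the plus strand (Nes, 15 CpGs), chr3:34649745-34649994 plus (Sox2, 27), chr2:13574061-13574310 plus (Vim, 8), chr10:57784673-57784922 plus (Fabp7, 4), chr1:120602237-120602486 plus (En1, 19), chr2:74667975-74668224 plus (Hoxd13, 31) and chr17:35176053-35176302 minus (Aif1, 1).
Nes: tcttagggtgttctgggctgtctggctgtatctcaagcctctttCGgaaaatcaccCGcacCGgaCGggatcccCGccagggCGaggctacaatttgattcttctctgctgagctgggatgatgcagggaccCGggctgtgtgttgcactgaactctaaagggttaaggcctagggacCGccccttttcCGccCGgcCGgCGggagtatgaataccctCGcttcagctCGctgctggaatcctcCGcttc
Sox2: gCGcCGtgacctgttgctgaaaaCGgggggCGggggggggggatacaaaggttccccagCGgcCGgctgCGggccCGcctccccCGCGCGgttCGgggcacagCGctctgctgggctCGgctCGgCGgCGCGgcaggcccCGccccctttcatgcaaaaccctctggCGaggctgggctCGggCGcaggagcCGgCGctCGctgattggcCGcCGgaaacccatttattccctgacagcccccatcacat
Vim: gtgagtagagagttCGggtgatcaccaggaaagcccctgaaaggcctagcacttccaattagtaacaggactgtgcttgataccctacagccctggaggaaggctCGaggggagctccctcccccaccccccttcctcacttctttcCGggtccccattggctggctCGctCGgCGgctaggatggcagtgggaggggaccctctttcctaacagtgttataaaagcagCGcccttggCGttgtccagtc
Fabp7: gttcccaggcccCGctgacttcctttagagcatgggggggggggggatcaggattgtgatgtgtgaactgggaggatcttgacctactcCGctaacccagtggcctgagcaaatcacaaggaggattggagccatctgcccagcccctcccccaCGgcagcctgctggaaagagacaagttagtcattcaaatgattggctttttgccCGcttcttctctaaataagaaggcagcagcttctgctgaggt
En1: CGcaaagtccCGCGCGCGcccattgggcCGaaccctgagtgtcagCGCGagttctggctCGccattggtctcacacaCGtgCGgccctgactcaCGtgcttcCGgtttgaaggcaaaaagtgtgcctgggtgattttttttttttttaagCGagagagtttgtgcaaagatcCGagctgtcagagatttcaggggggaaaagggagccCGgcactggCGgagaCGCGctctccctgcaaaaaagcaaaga
Hoxd13: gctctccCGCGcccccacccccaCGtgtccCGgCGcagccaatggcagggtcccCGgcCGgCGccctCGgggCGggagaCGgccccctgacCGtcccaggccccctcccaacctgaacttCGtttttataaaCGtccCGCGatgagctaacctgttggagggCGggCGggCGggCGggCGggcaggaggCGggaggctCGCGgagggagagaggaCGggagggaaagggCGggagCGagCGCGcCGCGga
Aif1: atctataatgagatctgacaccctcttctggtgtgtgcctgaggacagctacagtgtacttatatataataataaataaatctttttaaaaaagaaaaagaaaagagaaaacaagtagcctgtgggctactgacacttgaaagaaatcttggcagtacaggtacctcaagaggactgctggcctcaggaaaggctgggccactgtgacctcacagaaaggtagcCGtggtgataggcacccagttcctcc

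**Figure D1:**
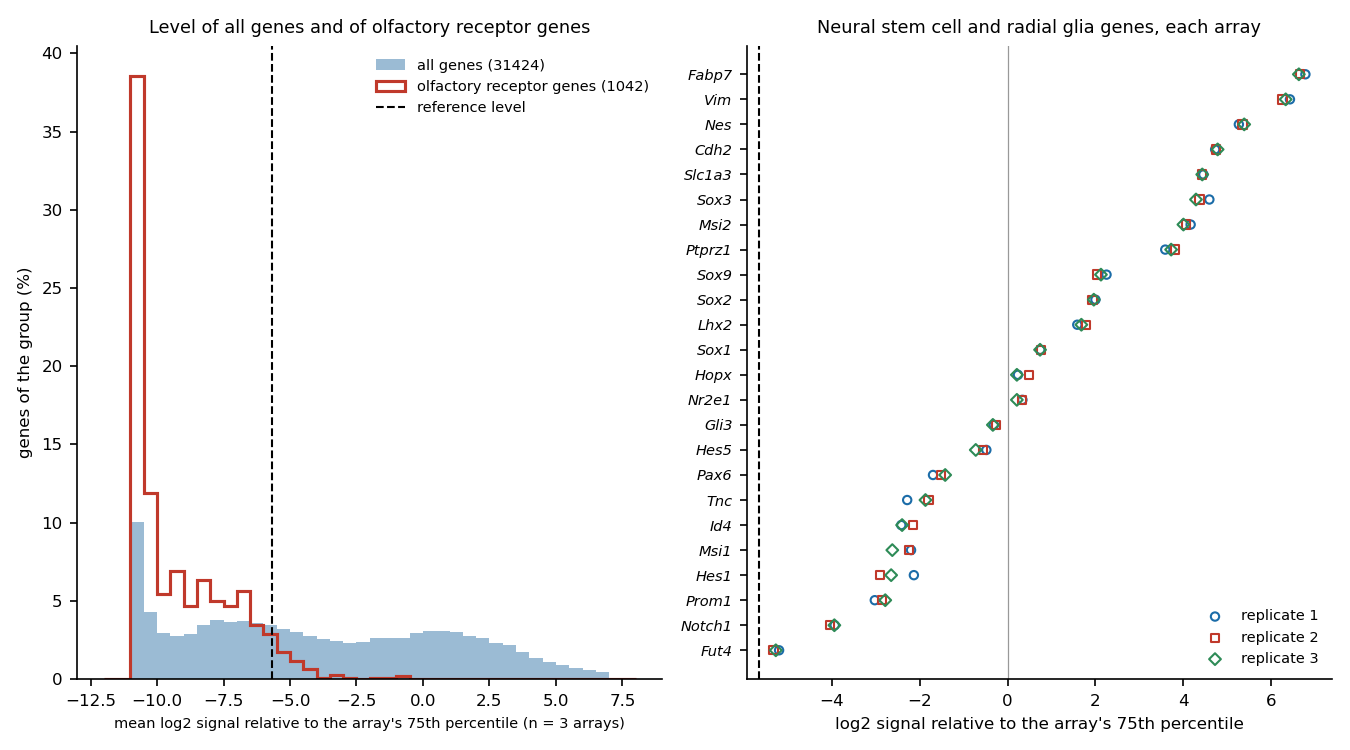
Left, the share of genes (%) by mean level on 3 arrays, for all 31424 genes (filled) and the 1042 olfactory receptor genes (red line), with the reference level at -5.67 as a dashed line. Right, the level of each of 24 neural stem cell and radial glia genes on each array (symbols); every gene lies above the dashed reference level, from Fut4 at -5.27 to Fabp7 at 6.69, and most symbols of a gene overlap.

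All 24 genes of the neural stem cell and radial glia list stood above the reference level, where 56.5% of all genes did, and 14 of them had a level over 0. Next to the 4 markers these included Sox3 (4.42 ± 0.16) and Sox1 (0.75 ± 0.01, with a second probe at -3.33), the other SoxB1 factors. The glutamate transporter gene Slc1a3 read 4.46, 4.42 and 4.43, and the adhesion gene Cdh2 (N-cadherin) 4.73, 4.75 and 4.79. Sox9, a factor of neural stem cells and glia, read 2.14 ± 0.11, and Lhx2, which specifies cortex, 1.69 ± 0.10. Most of the list was thus bright, but several well known members sat low on the scale. Pax6, the cortical progenitor factor, read -1.70, -1.52 and -1.42 on its brighter probe and -6.30 on its other. The Notch effector Hes5 read -0.59 ± 0.12 and Hes1 -2.57 ± 0.40, with replicate 1 of Hes1 the highest at -2.13. Notch1 read -3.98 ± 0.06 on a pair of probes that agree (the other at -4.05). Fut4, the enzyme that makes the LeX surface epitope, was the lowest at -5.27 ± 0.06, which is just above the reference level.

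Proliferation genes were bright: 16 of 18 stood above the reference level and 15 had a level over 0, against 25.9% of all genes. The replication helicase subunit Mcm6 read 5.40 ± 0.07, the cyclin genes Ccnd1 and Ccnd2 5.15 ± 0.07 and 5.05 ± 0.04, and Mki67, the Ki-67 gene, 4.19, 4.16 and 4.33. The other 2 genes of the list were Cdk6, the partner kinase of D-type cyclins, which was not well above background on any array (-8.81 ± 0.16), and Aurkb, a mitotic kinase, at -7.33 ± 1.63. Each of them rests on 1 probe. Aurkb read -5.45 on replicate 1 but -8.15 and -8.39 on the others, so its mean is not a stable value. The inhibitors of cyclin-dependent kinases were measurable together with the cyclins, 7 of 7 above the reference level. Cdkn2a, the locus of p16Ink4a and p19Arf, read 2.73, 2.79 and 2.93 on its brighter probe and -2.43 on the other. Cdkn1a, the p21 gene, read 2.41 ± 0.15 and Cdkn1b, the p27 gene, 2.37 ± 0.03, each with a dimmer probe (-2.1 and -5.6). The lowest of the 7 was the imprinted inhibitor gene Cdkn1c at -3.79 ± 0.07.

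Genes of the step from progenitor to neuron were mostly low, with 6 of 15 proneural and intermediate progenitor genes above the reference level. Gadd45g, a stress and differentiation gene, read 3.48 ± 0.03 and Insm1, a zinc finger factor of basal progenitors, 0.70 ± 0.11. Eomes, the marker of cortical intermediate progenitors, read -3.65 ± 0.03 on its brighter probe, and Neurog2, the proneural factor of the cortex, -5.29 ± 0.09. Neurog2 thus sat near the reference level. Neurog1 (-6.79 ± 0.14) and Neurod1 (-7.86 ± 0.07) were detected below the reference level, and Neurod4, Neurod6 and Atoh1 were not detected on any array.

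Neuron markers were split, with 16 of 24 above the reference level and 3 with a level over 0. The 3 were Gap43, a growth cone protein gene (3.88, 3.65 and 3.65), Map2, a dendritic microtubule protein gene (3.39 ± 0.05), and Snap25, a synaptic fusion protein gene (1.34 ± 0.32). Elavl3 and Tubb3, which early neurons turn on, read -2.0 ± 0.12 and -2.29 ± 0.28. The markers most closely tied to newborn and cortical neurons were lower still. Dcx, doublecortin, read -7.43, -6.77 and -7.19 with the 2 other probes not detected on any array, and Tbr1, a factor of deep-layer neurons, -8.02 ± 0.67. Stmn2, Fezf2, Gad2 and Slc17a7, the latter pair being an enzyme of GABA synthesis and a vesicular glutamate transporter, were not detected on any array. Whether the neuronal transcripts came from few differentiated cells or from low expression in many was not tested, and in bulk RNA these cannot be told apart. The same holds for every other cell type list described here.

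The glial lists stood higher. Of 16 astrocyte genes, 14 were above the reference level and 8 had a level over 0. Sparcl1, a secreted matrix protein gene, read 6.21, 6.08 and 5.99, and Aldoc, a glycolytic aldolase gene of astrocytes, 6.0, 5.93 and 5.78. The gliogenic factors Nfib (4.60 ± 0.04, other probe -1.1) and Nfix (1.79 ± 0.11) stood above 0, and Nfia read -2.80 ± 0.05. These are genes that radial glia share with astrocytes. The markers of mature astrocytes were spread over a wide range. Glul, the glutamine synthetase gene, read 2.55 ± 0.05, the calcium-binding protein gene S100b 1.37 ± 0.12 and the folate enzyme gene Aldh1l1 -0.11 ± 0.11. Others were much dimmer. Gfap, the astrocyte filament gene, read -5.20, -4.97 and -5.28 on its brightest of 3 probes. The other Gfap probes averaged -6.29 and -8.25, below the reference level. Aqp4, the water channel gene, read -4.87 ± 0.27. Slc1a2, an astrocyte glutamate transporter gene, lay below the reference level (-5.86 ± 0.13), and the connexin gene Gjb6 was not detected on any array.

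Of 14 oligodendrocyte lineage genes 11 were above the reference level. Olig1 read 5.09, 4.98 and 5.03 and Olig2 3.93, 3.78 and 3.88, so both factors of the lineage were bright on every array. Later genes of the lineage were lower: Cspg4 (NG2) read -1.23 ± 0.06, Pdgfra, the receptor of oligodendrocyte precursors, -2.39 ± 0.09, and Sox10 -4.53, -4.67 and -4.97. Among myelin genes, Cnp read 1.03 ± 0.08 and Mbp -7.62 ± 0.36, the latter below the reference level.

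**Figure D2:**
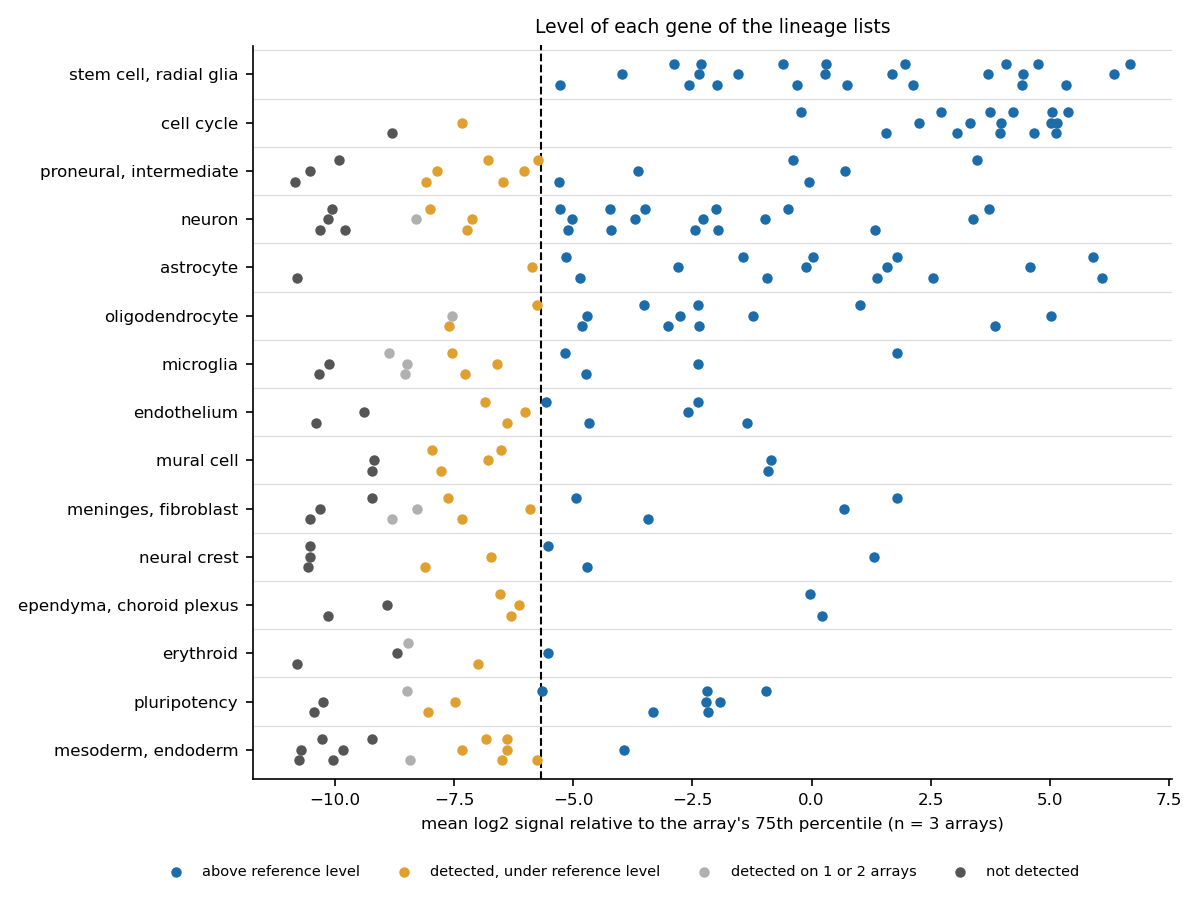
Mean level on 3 arrays (x axis) of each gene in 15 lineage lists (rows; points are spread within a row only for legibility), coloured by detection. All 24 stem cell and radial glia genes and 16 of 18 cell cycle genes lie right of the dashed reference level (-5.67), against 1 of 14 mesoderm and endoderm genes and 1 of 5 erythroid genes.

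A dissected cortex could bring other cells along, and most markers of microglia, mural cells and red blood cells did not stand above the reference level. For endothelium the share, 5 of 10, was near the 56.5% of all genes. Microglia had 4 of 12 genes above the reference level, or 2 with the stricter one. Of these Itgam rests on 1 bright probe (2.10, 1.70 and 1.60) while the 2 others averaged -5.63 and -5.70, and Csf1r on 1 at -2.39 with another at -6.7. C1qb and P2ry12 read -4.74 ± 0.25 and -5.17 ± 0.12. The lineage factor gene Spi1 and Aif1 were not detected on any array, Ptprc (CD45) and Cd68 stayed below the reference level, and Cx3cr1, Trem2 and C1qa were detected on some arrays only. Endothelium had 5 of 10 above the reference level (3 with the stricter one), with the highest at -1.35 ± 0.28 for the VEGF receptor gene Kdr, while the endothelial junction genes Cdh5 (not detected) and Cldn5 (-6.87 ± 0.26) were low. Mural cells had 2 of 8, the actin-binding Tagln (-0.85 ± 0.56) and the smooth muscle actin gene Acta2 (-0.91 ± 0.16), with Pdgfrb not detected and Rgs5 at -7.96 ± 0.29. Red blood cell genes had 1 of 5, Hbb-bh1 at -5.53 ± 0.27.

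The meningeal and fibroblast list had 4 of 12 above the reference level. Its factor genes Foxc1 (1.91, 1.75 and 1.75) and Prrx1 (0.67 ± 0.05) were well above it, but the matrix genes were not: Col1a2 read -4.95 ± 0.30, Col1a1 -5.92 ± 0.05 and Dcn -7.34 ± 0.14, while Lum was not detected and Col3a1 was detected on some arrays only. Neural crest genes had 3 of 8 (1 with the stricter reference level), namely Ets1 (1.31 ± 0.05), Sox10 and Ngfr, and the crest factor genes Foxd3 and Tfap2b were not detected. Ependyma and choroid plexus had 2 of 7, the homeobox factor Otx2 (0.22 ± 0.08) and the ciliogenesis factor Foxj1 (-0.03 ± 0.14), and the choroid transthyretin gene Ttr was not detected. In these lists the genes above the reference level were thus a minority, and those with a level over 0 (Foxc1, Prrx1, Ets1 and Otx2) encode transcription factors. What part other cell types had in these levels was not tested.

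Pluripotency genes had 7 of 12 above the reference level (58.3%, near the 56.5% of all genes) and 0 with a level over 0. Klf4 read -0.97 ± 0.10 and the RNA-binding protein gene Lin28a -2.22 ± 0.05. Nanog read -3.32 ± 0.18 on its brighter probe and -6.9 on the other. Pou5f1, the Oct4 gene, read -8.05 ± 0.27, below the reference level, and Dppa3 and Fgf4 were not detected. Mesoderm and endoderm genes had 1 of 14, the mesoderm factor T (Brachyury) at -3.95 ± 0.18, with Sox17, Foxa1, Foxa2, Hnf4a, Myf5 and Mixl1 not detected on any array.

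Regional factors of the dorsal telencephalon, the origin the labels give, were above the reference level in 10 of 14 genes (71.4%). With the stricter reference level 7 remained. The list's median level was -4.31, no higher than that of the ventral telencephalic list (-4.16) or the midbrain and hindbrain list (-4.07). These counts therefore do not set the dorsal list apart from those of other regions. Nr2f1 (COUP-TFI), a cortical area factor, read 4.0, 3.90 and 3.84. Emx2 read -2.19, -2.40 and -2.29. Emx1, its partner in cortical progenitors, read -7.62, -7.53 and -7.60 on its 1 probe, below the reference level, and the cortical hem factor Lmx1a was not detected. Nr2f1 was thus bright on every array, while Emx2 stood above the reference level and Emx1 under it. The ventral telencephalic list had 8 of 13 above the reference level (61.5%, near the 56.5% of all genes) and 0 over 0. Gsx1 read -0.78 ± 0.05, and Dlx1 and Dlx2 -4.16 ± 0.11 and -5.19 ± 0.10. Nkx2-1, the factor of the medial ganglionic eminence, was not detected (-10.73 ± 0.16). In the diencephalon and eye list 3 of 9 genes passed, with Vax2 the highest at 0.23 ± 0.32, and Six6 and Sim1 were not detected.

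Of 18 midbrain and hindbrain genes 11 (61.1%) were above the reference level, a share near the 56.5% of all genes. Gbx2, which is known for setting the anterior hindbrain, read 0.74, 0.72 and 0.76, and Otx2, the forebrain and midbrain factor, 0.23, 0.29 and 0.13. En2 read -0.89, -0.85 and -0.80, whereas its paralogue En1 was not detected (-10.45, -10.55 and -10.78). The promoter of En1 printed above is CpG rich. The Iroquois genes Irx3 and Irx1 read -0.29 ± 0.15 and -0.30 ± 0.08. Every Pax gene of the list (Pax2, Pax3, Pax5, Pax7 and Pax8) was detected on its brightest probe and lay below the reference level.

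Hox genes, which pattern the hindbrain and spinal cord and are known to be largely silent in the forebrain, were above the reference level in 13 of 39 cases, against 56.5% of all genes, and 14 were not detected. The genes above it lay in paralogue groups 1 to 8 in 12 of 23 cases and in groups 9 to 13 in 1 of 16, that 1 being Hoxb9 (-5.13 ± 0.09). By cluster they were 6 of 11 in Hoxa, 6 of 10 in Hoxb, 0 of 9 in Hoxc and 1 of 9 in Hoxd. Hoxa7 was the highest and read -0.13, -0.33 and -0.30. Hoxa5 and Hoxa3 read -2.38 ± 0.05 and -2.61 ± 0.04, and Hoxb7 and Hoxb6 -3.06 ± 0.11 and -3.44 ± 0.12. Hoxd13 was not detected (-10.77, -10.38 and -10.69). With the stricter reference level 7 of the 39 remained.

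**Figure D3:**
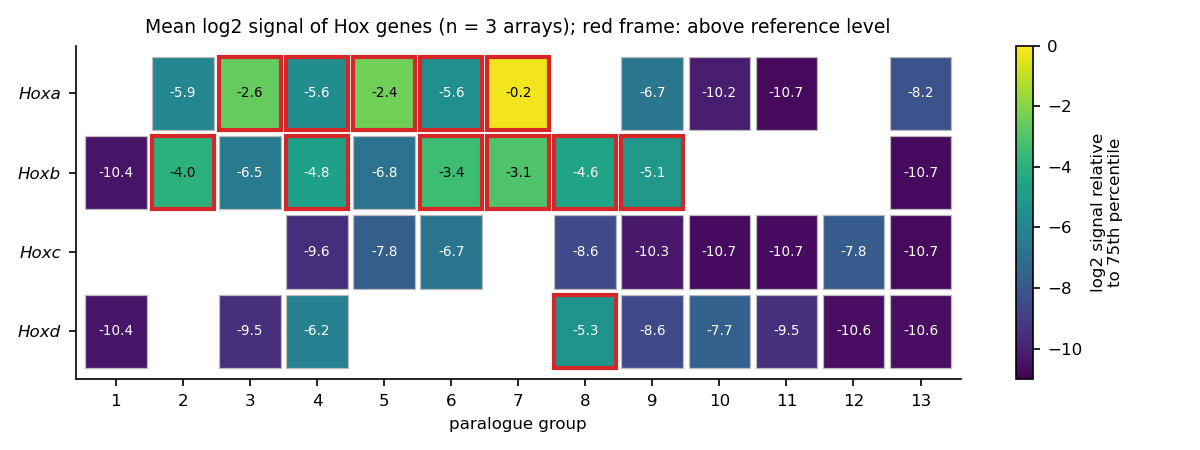
Mean level on 3 arrays of measured Hox genes, by cluster (rows) and paralogue group (columns), with the level printed and coloured; blank cells are Hox genes that do not exist, were not measured or are not reported here. The red-framed genes above the reference level (-5.67) lie in paralogue groups 1 to 8 of the Hoxa and Hoxb clusters, apart from Hoxb9 and Hoxd8.

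Among imprinted genes, 13 of 17 stood above the reference level. Mest read 5.85, 5.74 and 5.70 on its brightest of 3 probes, with the dimmest at 1.10, and Nnat 3.26 ± 0.05. Igf2, the fetal growth factor gene, read -8.99, -7.41 and -7.72 and was detected on some arrays only, as was the noncoding Meg3, and H19 stayed below the reference level (-6.07 ± 0.18). Of 7 sex-linked genes 3 stood above the reference level: the Y-linked Eif2s3y read 1.09, 0.93 and 1.05 and Ddx3y 0.25 ± 0.01, and Xist, which the inactive X expresses, -4.41, -4.75 and -4.58. The other Y-linked genes, Kdm5d (-7.87 ± 0.20), Sry (-7.36 ± 0.07) and Uty, were detected below the reference level, so the Y-linked genes were split.

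Receptors decide which ligands a cell can sense. Of 288 receptor and receptor-pathway genes in these lists, 205 (71.2%) stood above the reference level. Among receptor tyrosine kinases the count was 25 of 32. Egfr, the receptor of the mitogen EGF, read 4.03, 3.92 and 4.05 on its brightest of 3 probes (the others at 0.68 and 0.60). Fgfr1, the main FGF receptor of cortical progenitors, read 4.26, 4.14 and 4.25 (the others at 1.19 and -1.29), and Tyro3, a TAM family receptor gene, 4.70 ± 0.05. Both receptors for the usual culture mitogens were thus bright, with probes that differ widely. Fgfr3 read 0.95 ± 0.05 and Fgfr2 -1.96 ± 0.12, Igf1r 1.84 ± 0.11 and the neurotrophin receptor gene Ntrk2 3.30 ± 0.07. Fgfr4 and Ror1 lay below the reference level, and Erbb3, Pdgfrb, Flt4 and Ret were not detected on any array.

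Transcripts of the TGFb pathway, which the study addressed in the other arrays, were measured from receptor to Smad in untreated cells. In this pathway a ligand joins type I and type II receptor kinases, which phosphorylate receptor Smads that move to the nucleus with Smad4. Of 14 family receptors 13 stood above the reference level. The type II receptor gene Tgfbr2 read 1.39, 1.43 and 1.56 (other probe -3.02) and the type I receptor gene Tgfbr1 0.31, 0.08 and 0.18 (other probe -5.83). The BMP type I receptor genes Acvr1 and Bmpr1a read 2.10 ± 0.07 and 1.76 ± 0.03, and the activin receptor gene Acvr1c was detected on some arrays only (-8.36 ± 0.32). All 8 Smads were above the reference level: Smad4 read 2.60 ± 0.02, Smad3 1.97 ± 0.02 (other probe -5.67), Smad2 0.16 ± 0.10 and the inhibitory Smad7 -3.87 ± 0.18.

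The family's ligands were lower, with 15 of 33 above the reference level (9 with the stricter one) and 8 not detected. Tgfb1 read -7.48, -7.13 and -7.64, below the reference level. Tgfb2 read -0.52, -0.48 and -0.53 and Tgfb3 -0.09, -0.05 and -0.08, so 2 of the 3 TGFb ligand genes stood above the reference level and Tgfb1 did not. Bmp7 read 2.39, 2.53 and 2.41, Bmp2 -3.90 ± 0.10 and Bmp4 -7.58 ± 0.58. Bmp1, listed with the family by name although it encodes a protease, read 3.53 ± 0.09. Of 17 antagonists and binding proteins 12 were above the reference level, led by Fstl1 (2.87 ± 0.06) and the latent TGFb binding protein gene Ltbp3 (2.01 ± 0.09). Noggin (Nog) read -4.88 ± 0.47, and Grem1 and the decoy receptor gene Bambi were not detected.

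**Figure D4:**
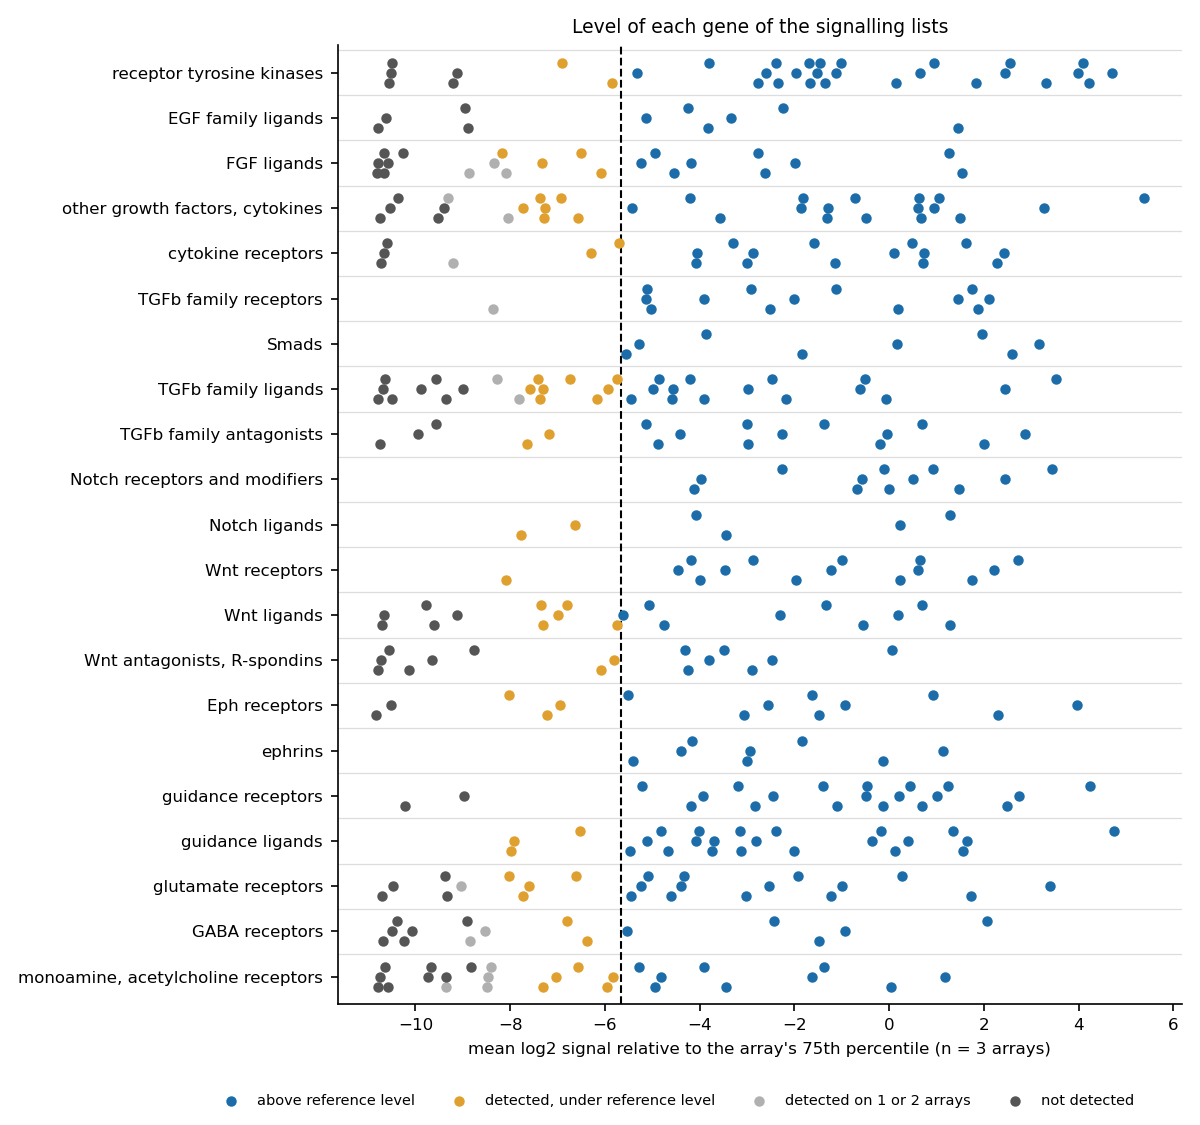
Mean level on 3 arrays (x axis) of each gene in 21 signalling lists (rows; points are spread within a row only for legibility), coloured by detection, with the reference level (-5.67) as a dashed line. All Smads, Notch receptors and modifiers and ephrins lie right of the line, while 15 of 33 TGFb family ligands and 9 of 22 FGF ligands do.

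Among ligands, FGF genes were above the reference level in 9 of 22 cases, or 5 with the stricter reference level. Fgf2, whose protein is a common mitogen of neural stem cell cultures, read -8.06, -8.13 and -8.34, below the reference level. Fgf1 (1.26 ± 0.11, other probe -5.33) and Fgf23 (1.54 ± 0.33, dimmest probe -9.0) each rest on 1 probe, and Fgf18 read -1.99 ± 0.10. The EGF family had 6 of 10, with the heparin-binding ligand gene Hbegf at 1.46 ± 0.14, Egf itself at -5.13 ± 0.16, and Btc, Ereg, Nrg3 and Nrg4 not detected. Other growth factors and cytokines had 17 of 30 (56.7%). This share and that of the EGF family (60.0%) were near the 56.5% of all genes. Ptn, pleiotrophin, read 5.45, 5.37 and 5.31 and Pdgfa 3.31, 3.20 and 3.28, in each case with a second probe close by (5.24 and 3.04). These 2 ligand genes are the ones in the list whose level was highest, and Pdgfra, the receptor gene for Pdgfa, read -2.39. Vegfc (1.51 ± 0.05), the chemokine gene Ccl2 (1.06 ± 0.05) and Kitl (0.68 ± 0.09) also stood over 0, and Bdnf read -1.32 ± 0.07. The inflammatory cytokine genes Il6 and Il1b and the growth factor genes Hgf, Gdnf and Pdgfd were not detected on any array.

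In the Notch pathway, in which a ligand on a neighbouring cell triggers cleavage of the receptor and its inner fragment enters the nucleus, all 12 receptors and modifiers stood above the reference level. The modifier protease gene Adam10 read 3.44 ± 0.08, Notch3 0.93 ± 0.10 and Notch2 0.02, -0.05 and 0.04 (other probe -5.98). The nuclear partner Rbpj read 0.50 ± 0.03. Of 6 ligands 4 were above the reference level, with Jag1 at 1.39, 1.22 and 1.25 and Dll1 at 0.25, 0.19 and 0.26, while Dll4 and Jag2 stayed below. Of 14 target and helix-loop-helix genes of the Hes, Hey and Id families 11 passed, with Hes6 at 3.28 ± 0.02, Id1 at 1.95 ± 0.12 and Hey1 at 1.35 ± 0.02, and Hey2 was not detected.

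Wnt receptors stood above the reference level in 14 of 15 cases and Wnt ligands in 9 of 19 (47.4%, beside 56.5% of all genes). Fzd9, Fzd1 and Fzd10 read 2.72 ± 0.08, 2.21 ± 0.01 and 1.75 ± 0.04, and the co-receptor gene Lrp6 0.62 ± 0.01. Among ligands Wnt5b read 1.30 ± 0.06, Wnt5a 0.71, 0.70 and 0.70, Wnt7a 0.18 ± 0.21 and Wnt7b -0.56 ± 0.12, while Wnt3a, Wnt2, Wnt2b, Wnt8a and Wnt10a were not detected. The ligand genes of radial glia, Wnt7a and Wnt7b, and the non-canonical Wnt5a and Wnt5b were thus the measured ones at the upper end. Wnt antagonists and R-spondins had 7 of 15, with Notum at 0.07 ± 0.29 and Sfrp1 at -2.89 ± 0.06, and Dkk1, Dkk2, Dkk4 and Rspo2 to Rspo4 were not detected.

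Of 14 Hedgehog pathway genes 13 were above the reference level. The signal transducer gene Smo read 4.15, 4.09 and 4.19 (other probe -0.54). The ligand gene Shh read -2.74, -2.41 and -2.41 and the target gene Gli1 -2.90, -2.72 and -2.77. Ptch1, the receptor and a target of the pathway, read -2.47 on replicate 1 and -4.66 and -4.15 on the others. Ptch1 was the list member above the reference level that stood over 1 unit above both other arrays on replicate 1. Its second probe did not share this, with -4.05, -3.93 and -3.92, and neither did Gli1.

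Cytokine receptors were above the reference level in 14 of 20 cases. The gp130 subunit gene Il6st read 0.11 ± 0.12, its partner Lifr 1.62 ± 0.16 (other probe -2.2) and Cntfr -1.14 ± 0.05, so the receptor parts for LIF and CNTF were measured. The interferon gamma receptor genes Ifngr1 and Ifngr2 read 2.29 ± 0.05 and 0.73 ± 0.09. Ccr1, Ccr2 and Tnfrsf1b, which leukocytes use, were not detected.

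Contact and guidance systems were measured to differing extents. Ephrins had 8 of 8 above the reference level, led by Efnb1 (1.13 ± 0.05). Eph receptors had 9 of 14 (64.3%, near the 56.5% of all genes). They were led by Ephb3 (3.97 ± 0.13) and Epha5 (2.30 ± 0.10), with Epha6 and Epha10 not detected. With the stricter reference level 5 of the 8 ephrins remained. Receptors for semaphorins, netrins and slits had 19 of 21, led by Plxnb2 (4.23 ± 0.04). The netrin receptor gene Dcc and Unc5d were the 2 not detected. Guidance ligands had 21 of 24, with the semaphorin gene Sema4c at 4.74 ± 0.15 and the netrin gene Ntn1 at 1.35 ± 0.12. Integrins had 19 of 26: the laminin receptor subunit genes Itga6 and Itgb1 read 3.32 ± 0.07 and 2.40 ± 0.14, and the leukocyte subunit genes Itgax, Itgad and Itgae were not detected.

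Receptors for transmitters were measured in part. Glutamate receptors had 14 of 23 above the reference level (8 with the stricter one), GABA receptors 5 of 15 and monoamine and acetylcholine receptors 9 of 26. The shares were 60.9%, 33.3% and 34.6%, so that of glutamate receptors was near the 56.5% of all genes. Grm5, a metabotropic glutamate receptor gene, read 3.40, 3.45 and 3.37 on its brightest of 3 probes (dimmest -4.04), and the AMPA subunit gene Gria4 1.73 ± 0.09. Grin1, the subunit that every NMDA receptor needs, was below the reference level at -7.73 ± 0.13. Gabrg1, a gamma subunit gene, read 2.17, 1.97 and 2.06 (other probe -1.69), while Gabra5, Gabra6, Gabrb1 and Gabbr2 were not detected. Adrb1, a beta adrenergic receptor gene, led the monoamine list (1.18 ± 0.13). Chrm4, a muscarinic receptor gene, read -3.84, -4.38 and -6.59 and had the largest SD of any list member above the reference level (1.46). Of 48 nuclear receptors 31 passed (64.6%, also near the share of all genes). Nr2f6 read 3.39 ± 0.06, the retinoid X receptor gene Rxrb 2.67 ± 0.02 and the thyroid hormone receptor gene Thra 2.64 ± 0.10. Pgr, Vdr and Nr0b1 were not detected.

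Regulators were the group of lists with the highest share above the reference level, 162 of 190 genes (85.3%), and 7 were not detected (3.7%). This rank depends on how the lists were grouped, as Hox, proneural and regional factors were counted in other groups. The share also varied within the group. Among transcription factors, Zic and Nfi genes had 9 of 9, but Hes, Hey and Id genes 11 of 14 and POU factors 9 of 14. The chromatin lists ranged from 16 of 20 histone demethylases to every measured member in several lists. Beside the SoxB1 genes, the SoxC factor genes Sox4 and Sox11, which are known from neuronal differentiation, read 3.80 ± 0.04 and 3.20 ± 0.15, and Sox17 and Sox18, factors of endoderm and endothelium, were not detected. Sox genes had 14 of 19 in all. Of 14 POU factors 9 passed (64.3%, near the 56.5% of all genes). Pou3f1 read 2.46, 2.37 and 2.62, and Pou3f2 (Brn2), a factor of neural progenitors, -3.09 ± 0.01. Pou1f1, a pituitary factor, read 2.80 ± 0.02 on 1 probe and -10.8 on another, so its level rests on 1 probe. All 9 Zic and Nfi genes and 14 of 17 Klf genes stood above the reference level. Factors and cadherins of epithelial to mesenchymal transition had 3 of 9. Among them Zeb1 read 2.95 ± 0.05 and Zeb2 -0.55 ± 0.05, Snai1 and Snai2 lay below the reference level, and Twist1 and the epithelial cadherin gene Cdh1 (-10.73 ± 0.16) were not detected, whereas Cdh2 read 4.75 ± 0.03.

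Chromatin complexes were measured nearly whole. Polycomb repressive complex 2, which methylates lysine 27 of histone H3, had 11 of 11 above the reference level. Its enzyme gene Ezh2 read 2.55, 2.54 and 2.55, Eed 3.43 ± 0.02 and Suz12 0.76 ± 0.02, and the alternative enzyme gene Ezh1 -0.32 ± 0.08 with another probe at -7.1. Complex 1 had 15 of 16, with Bmi1 at 2.98 ± 0.07 and the ligase gene Rnf2 at 1.12 ± 0.06. Cbx7 was its only member not detected (-10.70, -10.43 and -10.72), beside Cbx2, Cbx6 and Cbx8 above the reference level. The histone H3 lysine 4 methyltransferase complexes had 11 of 11, the DNA methylation genes 12 of 12, with Dnmt1 at 1.94 ± 0.17 and the regulatory Dnmt3l lowest at -5.47 ± 0.70, and the deacetylases, acetyltransferases and their corepressors 17 of 17. Rest, the repressor of neuronal genes, read 0.62, 0.79 and 0.86.

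Histone demethylases had 16 of 20 above the reference level. Kdm6b, which encodes JMJD3, the target of the shRNA in the other arrays, read -0.84, -0.73 and -0.75 on its brighter probe and -5.51, -5.68 and -5.81 on the other, whose mean is at the reference level. Its relative Kdm6a (UTX) read -2.29, -1.98 and -2.01. Both demethylases of histone H3 lysine 27 were thus measured in control cells, and the Y-linked relative Uty was below the reference level (-6.17 ± 0.63). The lysine 4 demethylase gene Kdm1a read 3.85 ± 0.11 and Kdm2b, whose protein also binds CpG islands, 3.94 ± 0.01. BAF remodelling subunits had 20 of 21, with the ATPase gene Smarca4 at 5.78, 5.80 and 5.81. The neural progenitor subunit gene Actl6a read 2.65 ± 0.08 and its neuronal counterpart Actl6b -6.98 ± 0.20, which was the only subunit under the reference level.

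The 25 named genes of highest level were led by Tuba1b (7.44 ± 0.06), a tubulin gene, and included 16 ribosomal protein genes. Others were the actin genes Actb (7.25 ± 0.02) and Actg1 (6.92 ± 0.02), Tpt1 (7.25 ± 0.10) and the ferritin gene Ftl1. Cox6a1 and Mdh2, nuclear genes that encode mitochondrial proteins, were there too. Exosc2, an RNA exosome subunit gene, and Kctd14 were also among them. Kctd14 read 7.13 ± 0.07 on its brightest of 3 probes and -7.83 on its dimmest, so its rank rests on 1 probe.

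The 10 detected genes with the largest SD were Wfdc6a (1.79), Cldn10 (1.74), Wfdc6b (1.70), Oxct2b (1.66), Aurkb (1.63), Smg8 (1.54), Rap1a (1.5), Chrm4 (1.46), Plcxd1 (1.46) and Ndfip2 (1.42). Plcxd1 read 0.32, -0.64 and -2.54, and Rap1a, a small GTPase gene, -2.65, -5.48 and -4.91. Replicate 1 stood apart most often: 104 of 17747 genes above the reference level (0.59%) exceeded both other arrays by over 1 unit there, against 2 on replicate 2 and 0 on replicate 3. Below both others by over 1 unit lay 5 genes on replicate 1, 0 on replicate 2 and 17 on replicate 3. Of the 629 list genes above the reference level 565 had an SD under 0.2 and 8 an SD over 0.5, which were Chrm4, Ptch1, Dnmt3l, Sp8, Tagln, Plxna4, Dppa5a and Tdgf1. What set replicate 1 apart was not tested.

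The promoter sequence is a property that the arrays did not measure. RefSeq promoter windows of 300 bases (250 before the start and the 50 after it) matched 17176 of the 31424 genes and 698 of the list genes. The CpG content was taken as observed over expected, the number of CpGs divided by that which the window's C and G content would give at random. Its median was 0.75 for 10858 genes above the reference level, 0.30 for 2499 detected genes below it, 0.25 for 751 genes detected on some arrays and 0.20 for 3068 genes not detected. Without olfactory receptor genes the last value was 0.23. The share of genes above the reference level was 23.8% where the ratio was under 0.2 and 93.0% where it was 1.0 or more. These are descriptions over genes, which share base composition by family and are not independent.

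**Figure D5:**
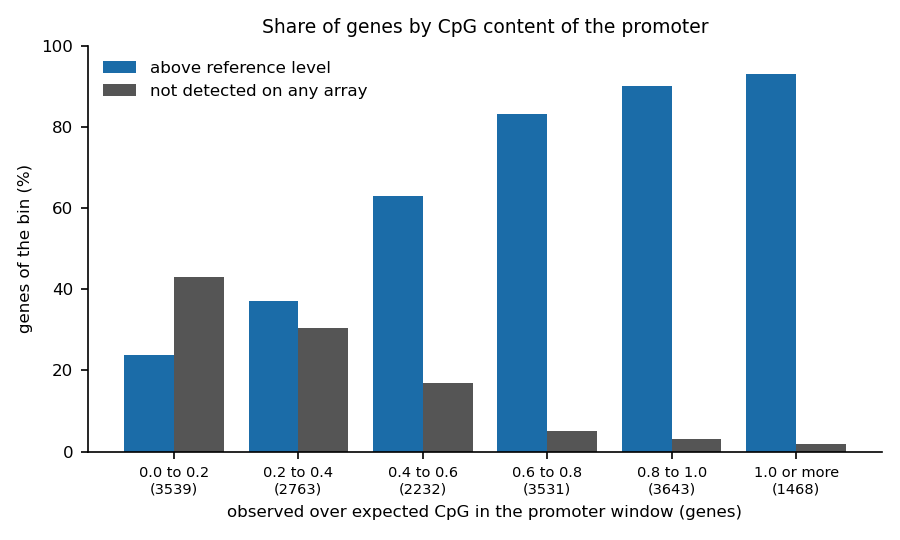
Share of genes (%) above the reference level (blue) and not detected on any array (grey), by observed over expected CpG of the 300-base promoter window; gene numbers are in parentheses. From the lowest to the highest bin the blue bars go from 23.8% to 93.0% and the grey bars from 43.0% to 1.9%.

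Genes could be at either end of this range and go against it. Of the markers printed above, Fabp7 has a ratio of 0.28 in the whole window and Vim 0.42, although both were among the brightest genes, while Nes has 0.70 and Sox2 0.82. En1 (0.95) and Hoxd13 (0.90) have higher ratios than these 4 and were not detected on any array, while Aif1 (0.07) was poor in CpG and not detected. Developmental factors of other lineages and regions that were not detected had a median of 0.69 over 21 windows, of which 11 (52.4%) exceeded 0.6. The same share was 12.9% among the 2512 not detected genes other than olfactory receptors. The 21 genes come from the lists for Hox, mesoderm and endoderm, neural crest, ventral telencephalon, diencephalon and eye, and midbrain and hindbrain. Those of these lists that stood above the reference level had a median of 0.77 over 23 windows, of which 18 (78.3%) exceeded 0.6. Pooled over these lists, the genes not detected thus had the lower median, but this did not hold in each list. The median of undetected genes was above that of their whole list for midbrain and hindbrain (0.93 against 0.76) and ventral telencephalon (0.81 against 0.77). For Hox genes it was 0.6 against 0.59. It was lower for diencephalon and eye (0.75 against 0.82), mesoderm and endoderm (0.37 against 0.51) and neural crest (0.63 against 0.66). Most of these lists had few undetected windows. Transmitter receptor genes that were not detected had a median of 0.56 over 14 windows. No test of these differences was made, since the lists were chosen with earlier results of these data known.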

How the data were processed

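RNA of 3 untreated control samples was described on its own. The labels' protocols state 500 ng of total RNA per sample, oligo-dT amplification and a Cy3 label. Agilent Feature Extraction 10.7.3.1 gave the deposited intensity of each spot, per the file headers: a linear, background-corrected processed signal, with probe positions in mm9. The authors' deposited table of log2 values was used as an alternative only; each of its 3 columns matched its own array best, their shared median is 7.93, and its background correction is not given in the sources used here.

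Control spots and outlier spots were left out, spots of a probe were averaged, and a level was computed as log2 signal minus the log2 of the array's 75th percentile (Python 3.11.15, pandas 2.3.3). Probes were named through RefSeq accessions (26072), symbols (3195) or synonyms (930); 9232 kept the file's name, and 592 probes that list several RefSeq genes were left out. A gene has its brightest probe's level and is detected where any of its probes is. Values are mean ± SD over 3 arrays, whose number limits the precision, and no test was made since 1 group is described. The code was tested on simulated data. The members, lists and alternatives were chosen with earlier results of these data known, and the reference level after the values were seen. Genes named are list members, the 25 of highest level, the 10 of largest SD and Kdm6b, with clone and accession names passed over; some of these genes are not reported here. Alternatives were other detection calls, probe rules, scalings, normexp (limma 3.58.1, offset 50), quantile normalization, leaving out each array, and the authors' values; their effect is given at the end.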

Additional observations from a re-analysis of the deposited data

How the results depend on the processing

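No paired analysis was possible because the values come from no test and 1 group is described. Counts of genes and list members moved by over 1.5 times in few cases, and the cause was not tested. With the software's looser flag for signal above background the genes not detected fell to 2379, and with the 99th percentile of negative control spots to 3332. Detected erythroid genes went from 2 to 4 under both of these settings and to 1 when all probes had to pass. Detected diencephalon and eye genes went from 3 to 5 with at least 2 of 3 arrays or with the negative controls, and to 6 with the looser flag. The reference level, chosen after seeing the data, mattered more. With the 90th percentile of olfactory receptor genes the ependyma and choroid plexus count was 4 and the mesoderm and endoderm count 4. With the 99th percentile the counts were 2 for microglia, 3 for endothelium, 1 for neural crest, 0 for erythroid genes, 7 for Hox, 8 for glutamate receptors, 9 for TGFb ligands, 5 for FGF ligands and 5 for ephrins, and the total was 14746 genes. No count moved by over 1.5 times with normexp, the authors' values, the mean over probes or an array left out: without 1 array, 17639 to 17827 genes stood above the reference level and 23350 to 23664 were detected. The median SD of detected genes was 0.106, and between 0.089 and 0.118 under other scalings. Averaging a gene's probes moved the percentile of 103 of the genes named or listed by over 10 points, against 0 for each other setting. Normexp and the authors' values raised the median of all genes by 0.57 and 0.60, so dim genes stand closer to 0 there, and scaling on the array median shifts all levels by 4.43. Levels near the reference level are limited by signal over background.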
